A study of Mus with 7 samples.

Results

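The effect of DHA on resting macrophages was described by comparing the library of cells given DHA, DHA.LPS.0, with the library given the vehicle alone, Veh.LPS.0, neither of which received LPS. The comparison holds 3179 of the 11640 cells of the series, 698 in DHA.LPS.0 and 2481 in Veh.LPS.0, and each side is 1 library. Cells were kept when they had over 20000 unique molecular identifiers (UMIs, each marking 1 captured RNA molecule), at least 2000 genes and a mitochondrial share of UMIs under 20%. The cells were fetal liver-derived macrophages (FLMs), self-renewing cells grown from C57BL/6J mouse fetal liver in 30 ng/mL GM-CSF, a growth factor that keeps them dividing. Both libraries came from cells held for 24 h in 0.25% serum. DHA.LPS.0 received 25 µM DHA carried on 8.3 µM BSA, and Veh.LPS.0 received 8.3 µM BSA alone. Con, the cells collected before the change to low serum, had 10% serum and no BSA. It is given for level only, since it differs from both libraries in serum as well. The other libraries are the same 2 treatments followed by 20 ng/mL LPS for 1 or 4 h. A self-renewing culture under GM-CSF is the model here, and it is not the liver's resident population itself.

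DHA is a long-chain omega-3 polyunsaturated fatty acid. Cells that take up fatty acid esterify it into phospholipid or store it as triglyceride in lipid droplets, whose surface is coated by perilipins, and burn it in mitochondria after carnitine carries it across the membrane. Polyunsaturated fatty acids are also known to hold back SREBP, the membrane-bound factor that switches on the genes of fatty acid and cholesterol synthesis, and to be ligands of PPAR receptors, which switch on genes of fatty acid storage and oxidation. Their double bonds oxidise readily, and NRF2 is the factor that switches on genes against oxidants and electrophiles. These are background facts, and none of the factors' activities was measured.

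The kept cells had a similar median mitochondrial share, which the filter bounds, while the barcodes behind them did not. That similarity cannot show that the kept cells were of like quality, and they differed in depth. A mitochondrial share of at least 20% was found in 76.4% of the 3773 barcodes of DHA.LPS.0 and in 37.8% of the 4461 barcodes of Veh.LPS.0, so 18.5% and 55.6% of barcodes were kept. In the kept cells the median share was 7.49% and 7.47%, the median depth 46928 and 36897 UMIs, and the library totals 35027812 and 98763388 UMIs. The 2 libraries shared 0 barcodes among kept cells. With each cell thinned to 20000 UMIs, here called equal depth, at least 5 of 9 macrophage markers were seen in all of them. No cell showed 3 markers of any other cell type listed, which allows a share of cells with 3 detected of up to 0.430% with DHA and 0.121% with vehicle. How many of its markers a cell of another type would show at this depth was not tested. Free RNA could not be measured, as every kept cell was a macrophage by these markers. With scanpy's scoring, 51.4% of DHA.LPS.0 cells were called G1 (exact binomial 95% interval 47.7 to 55.2) and 29.2% of Veh.LPS.0 cells (27.4 to 31.0). With 1 library on each side no test across replicates was possible, and no p-value is given. Intervals are exact binomial 95% intervals, on summed UMIs for ratios and on cells for shares of cells. They cover counting error within these libraries only, and not the spread between cultures. Those on summed UMIs also leave out the spread between cells, since the UMIs of 1 cell are not independent. They are too narrow for genes with many of their UMIs in few cells. The part of the loss of cells, of depth and of phase in the differences below was not tested, except where values within cells of one mitochondrial range or phase are given.

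UMIs of the kept cells were summed per gene and scaled to the library total as CPM, and the ratio is CPM in DHA.LPS.0 over CPM in Veh.LPS.0. Most genes had nearly the same level in both libraries. A UMI in 50% or more of cells, in one library or the other, was found for 6276 genes. Of these, 84.4% had a ratio within 1.2-fold of 1, and the middle 50% of log2 ratios lay between -0.15 and 0.07, around a median of -0.04. The ratio was above 1 for 2486 of them and below 1 for 3790. "Rose" and "fell" are used here for genes past 1.5-fold that also met this limit on the share of cells, and for no others. By that rule 56 genes rose, 0.892% of those compared, and 43 fell, 0.685%. The 2-fold line was passed by 13 of the genes that rose and 7 that fell. The interval, which leaves out the spread between cells, lay wholly beyond 1.5-fold for 42 and 29. The split depends on the scaling: it was 72 and 31 with TMM factors, 70 and 31 with DESeq2's size factors and 90 and 36 with SCTransform-corrected counts. At the edge, Pkp2 was just inside at 1.505, with Ppp1r15a and Dusp4 just outside at 1.497 and 1.496, and Sc5d was inside at 0.666 with Bcl2a1d outside at 0.668. The limit on the share of cells was taken without thinning, and median depth was greater in DHA.LPS.0. A gene could thus meet it through only the library where it was higher. Hilpda, Klf2, Trib3, Ddit3 and Ifi202b did so, with a UMI in 37.4%, 29.9%, 33.3%, 48.0% and 46.2% of Veh.LPS.0 cells. So did others, among them Srxn1, Ankrd37, Chchd10 and Tmem120a, at 41.8%, 33.7%, 47.4% and 40.6% of Veh.LPS.0 cells. Cox6a2, Qpct and Itgb7 did so at 32.85%, 37.7% and 48.8%. Of the genes that fell, Scd1 and Samd1 met it through Veh.LPS.0 only, with a UMI in 69.0% and 54.3% of Veh.LPS.0 cells. The genes named here are not the full set. With cells thinned to 20000 UMIs, 29 of the 56 and 28 of the 43 were called again.

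**Figure D1:**
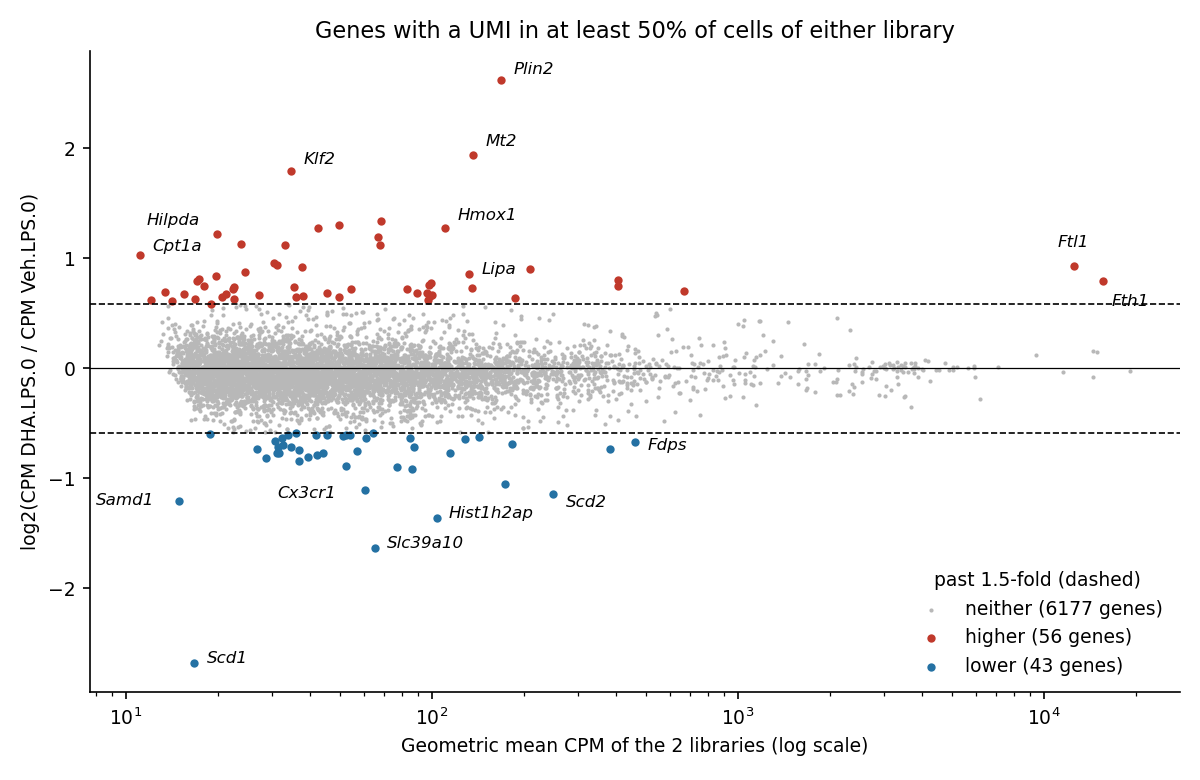
Each point is 1 of 6276 genes, with the geometric mean CPM of the 2 libraries across (log scale) and the log2 ratio of DHA.LPS.0 to Veh.LPS.0 up; dashed lines mark 1.5-fold. The cloud is centred near -0.04, Plin2 stands highest at 2.62 and Scd1 lowest at -2.68, and the ferritin genes Ftl1 and Fth1 stand apart at the highest levels.

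Among genes that store and burn fatty acid, Plin2 had the highest ratio of all genes that rose. Plin2, perilipin 2 (ENSMUSG00000028494, chr4:86626910-86670217 in GRCm38), the coat protein of droplets in cells other than adipocytes, went from 68.0 to 419 CPM, or a ratio of 6.16 (5.98 to 6.34), with 33.3 CPM in Con. At equal depth the middle cell held 1 Plin2 UMI in Veh.LPS.0 and 4 in DHA.LPS.0. The cell at the 90th percentile held 3 and 17. In 58.9% of DHA.LPS.0 cells Plin2 was above the 90th percentile of Veh.LPS.0, against 6.37% of Veh.LPS.0 cells. The rise was thus spread over most of the kept cells. Hilpda, an inhibitor of the lipase that empties droplets, rose from 12.98 to 30.3 CPM, or a ratio of 2.34 (2.15 to 2.54), and was 16.3 CPM in Con. They were 2 of 8 droplet coat and lipase genes that met the limit on the share of cells, where 0.892% of all such genes rose. Hilpda met it through DHA.LPS.0 only. For each list, the median is taken over usable members, those with at least 10 UMIs in each library, and only members that met the share limit could rise or fall. The median log2 ratio of 12 usable droplet genes was 0.12, between -0.56 for Lpin1 and 2.62 for Plin2. Pnpla2, the lipase that Hilpda inhibits, had a ratio of 1.29, Plin3 of 1.11, and the acyltransferases Soat1, Dgat1 and Dgat2 of 1.14, 1.06 and 1.198, none of them past the limits. The difference in the droplet list was thus nearly all Plin2, whose 419 CPM were the larger part of the 765 CPM of the list in DHA.LPS.0.

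Of 16 genes of fatty acid uptake and oxidation that met the limit on the share of cells, 3 rose, where 0.892% of all such genes did, and none fell. These 3, Cpt1a, Cd36 and Acadvl, met the limit through DHA.LPS.0 only. They had a UMI in 25.1%, 39.5% and 47.7% of Veh.LPS.0 cells, so the count leans on the library where they were high. Cpt1a, which makes the acylcarnitine that enters mitochondria, rose from 7.77 to 15.9 CPM, or a ratio of 2.05 (1.83 to 2.29). Cd36, a fatty acid and lipoprotein receptor, rose by 1.89, and Acadvl, the dehydrogenase that takes the longest chains first, from 17.5 to 28.8 CPM, or a ratio of 1.65 (1.52 to 1.78). Slc25a20, which carries acylcarnitine through the inner membrane, had 3.51 and 5.82 CPM, or a ratio of 1.66 (1.39 to 1.98), and the cytosolic binding protein Fabp3 had 2.55 and 5.77 CPM, or a ratio of 2.26 (1.87 to 2.73). Both were in too few cells to count as risen. Acaa2, the thiolase that closes the cycle, was outside the list and rose from 30.3 to 47.8 CPM, as did Tmem120a, a membrane protein linked to fat cells, from 16.1 to 35.1 CPM. The median log2 ratio over 25 usable members was 0.13, with 18 members above 0 and 7 below. The trifunctional enzyme genes Hadha and Hadhb had ratios of 1.04 and 1.11, and the medium-chain dehydrogenase Acadm 0.955. The most abundant fatty acid binding protein, Fabp5, was lower at 164 against 239 CPM, or a ratio of 0.686, and so were the acyl-CoA synthetases Acsl3 and Acsl4, at 0.731 and 0.740. So the summed level of the list was 1150 CPM with DHA and 1171 CPM without, although 3 of its genes rose.

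**Figure D2:**
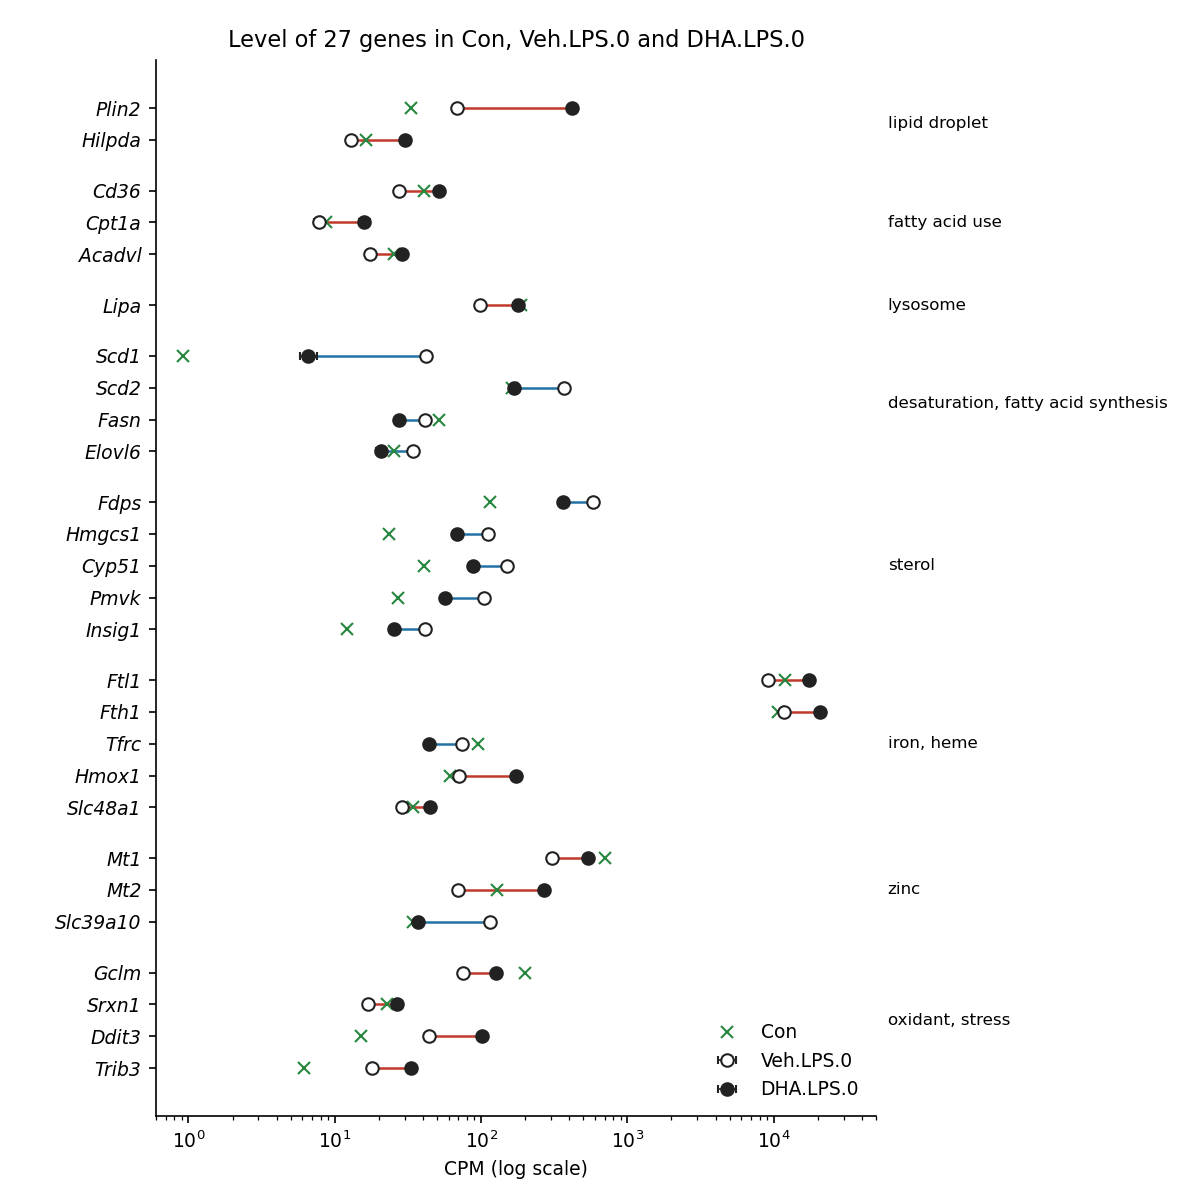
CPM (log scale) of 27 genes in Veh.LPS.0 (open circles), DHA.LPS.0 (filled circles) and Con (crosses), with lines in red where DHA.LPS.0 was higher and blue where it was lower. Bars are exact Poisson 95% intervals of counting error, mostly smaller than the symbols; the sterol genes shown lay between the vehicle and Con with DHA, while Plin2 at 419 CPM lay above both.

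Genes that make and desaturate fatty acids moved the other way. Scd1 and Scd2, neighbouring genes on chromosome 19 for the desaturases that put the first double bond into saturated chains, had the lowest ratios of those that fell in this list. Scd1 (chr19:44394450-44407709) went from 42.3 to 6.59 CPM, or a ratio of 0.156 (0.136 to 0.178), and was 0.915 CPM in Con. A Scd1 UMI was present in 51.1% of Veh.LPS.0 cells at equal depth (49.1 to 53.1) and in 10.7% of DHA.LPS.0 cells (8.55 to 13.3). Scd2 (chr19:44293676-44306864) fell from 369 to 167 CPM, or a ratio of 0.453 (0.441 to 0.466), close to the 163 CPM of Con. Fasn, the fatty acid synthase, fell by a ratio of 0.660 and Elovl6, which lengthens palmitate, by 0.603. Of the 12 members that met the limit on the share of cells 4 fell, where 0.685% of all such genes did, and none rose. Scd1 met it through Veh.LPS.0 only, where it was higher, with a UMI in 69.0% of Veh.LPS.0 cells. The median log2 ratio of 15 usable members was -0.45. The desaturases of polyunsaturated chains were lower too, Fads1 at 0.739 and Fads2 at 0.477 (0.413 to 0.549), from 13.6 to 6.51 CPM, though neither passed the limits. Acss2, which activates acetate, had a ratio of 0.512 at 7.19 and 3.68 CPM. Acly, Acaca and Elovl5, which supply acetyl-CoA, make malonyl-CoA and lengthen polyunsaturated chains, had ratios of 0.730, 0.690 and 0.814. The exception was Me1, the malic enzyme that supplies NADPH and is also on the NRF2 list, with 22.3 against 17.7 CPM, or a ratio of 1.26. Over cells, 47.7% of DHA.LPS.0 cells had fewer UMIs of the list than the 10th percentile of Veh.LPS.0.

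The cholesterol pathway was lower along its whole length. All 20 enzymes from acetoacetyl-CoA to cholesterol had a ratio below 1, as did 3790 of the 6276 genes compared. Of the 19 enzymes that met the limit on the share of cells 11 fell, where 0.685% of all such genes did. The median log2 ratio was -0.62, with a range from -0.89 for Pmvk to -0.24 for Ebp. Most of the named enzymes of the mevalonate part, which builds the isoprene units, fell: Acat2 had a ratio of 0.540, Hmgcs1 of 0.608, Mvk of 0.653, Pmvk of 0.538, Mvd of 0.647, Idi1 of 0.642 and Fdps of 0.629. Fdft1 and Sqle, which make squalene and its epoxide, were short of the limit at 0.737 and 0.771. Of the sterol-ring part, Lss, Cyp51, Nsdhl and Sc5d fell, at 0.587, 0.587, 0.609 and 0.666. Dhcr7, a late reductase, had 0.690. The summed level of the 20 enzymes was 627 CPM in Con, 2185 CPM in Veh.LPS.0 and 1438 CPM in DHA.LPS.0. At equal depth the middle cell held 45 UMIs of the list without DHA and 28 with it, and 35.5% of DHA.LPS.0 cells were below the 10th percentile of Veh.LPS.0, where 9.59% of Veh.LPS.0 cells lay. The distribution was therefore shifted and still overlapped widely.

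Of the genes that control this pathway, Insig1, which holds SREBP in the endoplasmic reticulum, fell at 0.617, and Stard4, a sterol carrier, at 0.586. The precursor genes Srebf1 and Srebf2 had ratios of 0.722 and 0.756. Scap, Mbtps1 and Mbtps2, the escort and the proteases of SREBP, stayed at 0.891, 0.947 and 0.998, and Npc1, which moves cholesterol out of the lysosome, was at 1.43. Pcyt2, of phosphatidylethanolamine synthesis, was outside the lists and fell from 52.1 to 29.9 CPM. Genes of cholesterol efflux did not move as a set. Abcg1 had a ratio of 0.632 at 12.1 and 19.1 CPM, Nceh1 of 1.40, Pltp of 1.55 and Smpdl3a of 1.81. Of the 3 members that met the share limit none rose or fell, near the 0.892% and 0.685% of all such genes that did. Nr1h2 and Nr1h3, the genes of the LXR receptors, had ratios of 1.03 and 0.515, the second from under 1 CPM in each library.

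**Figure D3:**
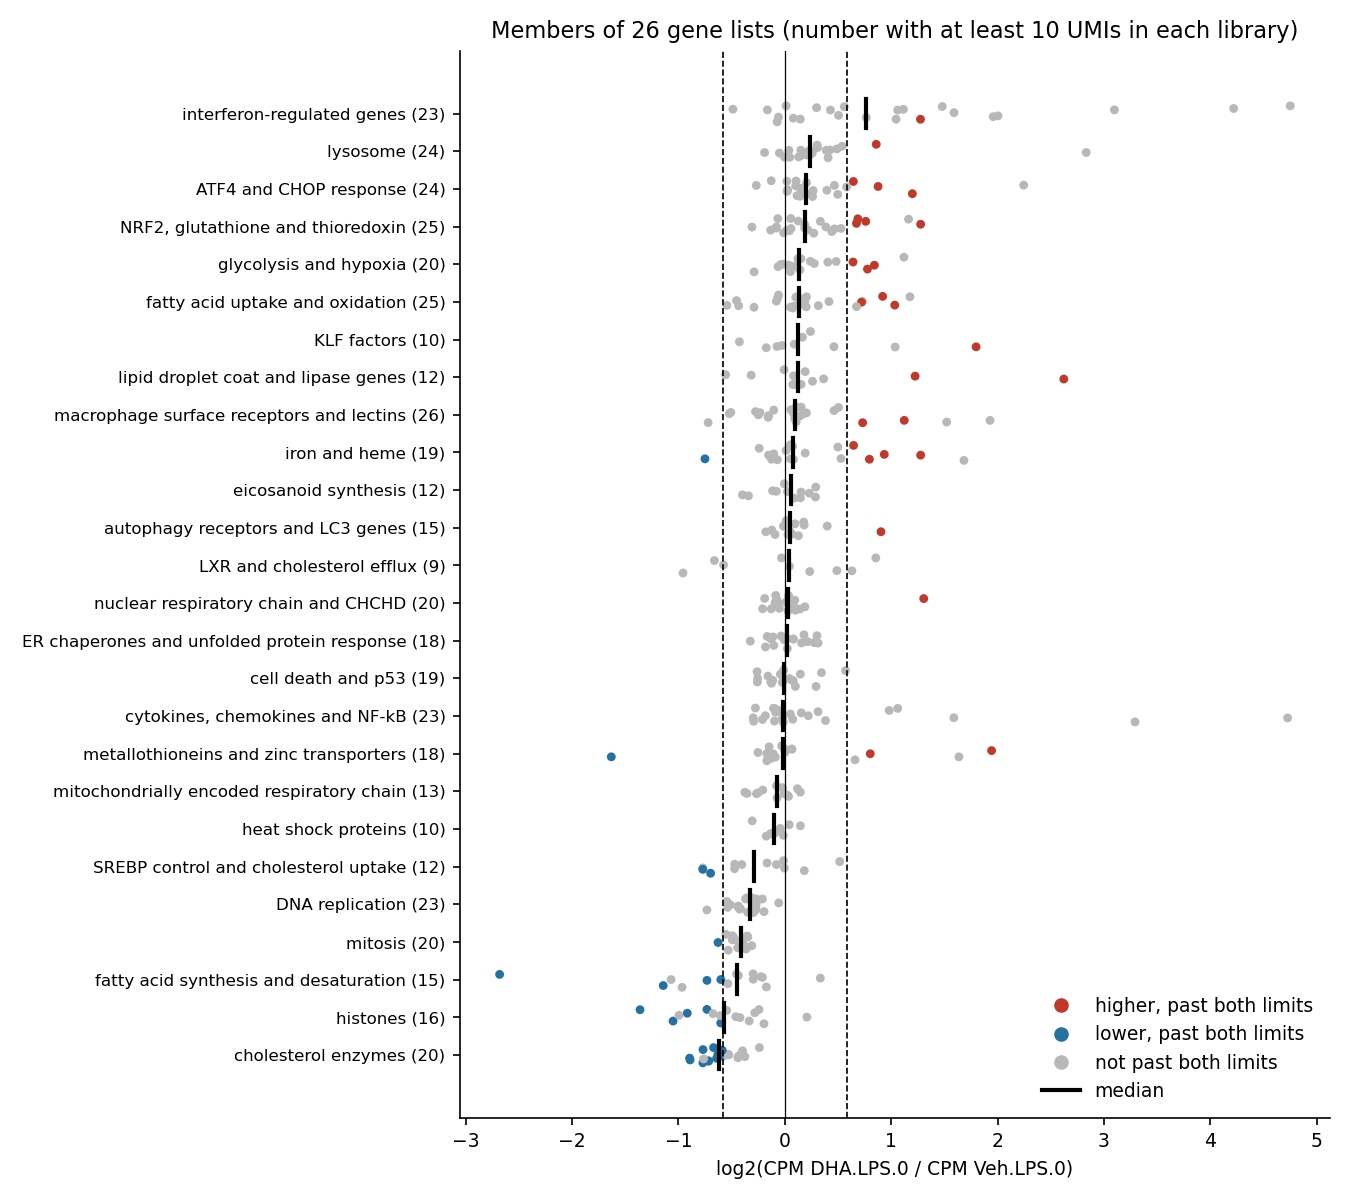
Log2 ratio of DHA.LPS.0 to Veh.LPS.0 for each usable member of 26 gene lists, 1 point per gene, with black bars for list medians and dashed lines at 1.5-fold. The sterol list lies wholly below 0 with a median of -0.62, the list of histones is at -0.57, and the interferon list spreads to 4.75 with grey points, genes that few cells expressed.

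Lysosomal genes were a little higher as a group. Of 24 usable members 21 had a ratio above 1, with a median log2 ratio of 0.23 where all genes had -0.04, and only Lipa, the acid lipase that frees fatty acid and cholesterol from lipoprotein lipid, rose, from 97.9 to 178 CPM with 187 CPM in Con. The cathepsins Ctsd, Ctsl, Ctsb and Ctss had ratios of 1.45, 1.34, 1.33 and 1.15, Psap 1.41 and Lamp1 1.23. The proton pump subunits of the list ranged from 0.998 for Atp6v0a1 to 1.24 for Atp6v1a, apart from Atp6v0d2, at 7.13. That gene had 91 UMIs without DHA and 230 with it, and 7 cells held 59.1% of the latter. The genes Tfeb, Tfe3 and Mitf, for factors that switch on lysosomal genes, had 0.877, 0.966 and 1.16. Outside the list, the pump subunit Tcirg1 rose by 1.65, the lysosomal glycoprotein Creg1 by 1.68 and the ribonuclease Rnaset2a by 1.61. Summed over the list the level went from 5972 to 7609 CPM, and 33.0% of DHA.LPS.0 cells lay above the 90th percentile of Veh.LPS.0.

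Genes of iron and heme handling changed in both directions. Fth1 and Ftl1, the chains of the iron store ferritin, rose by 1.74 and 1.91. They are among the most abundant transcripts, and with them the iron list went from 21893 to 39066 CPM. Ftl1 and its copy Ftl1-ps1, at 2.53, share sequence, so reads may be split between them and both values are uncertain. Tfrc, the transferrin receptor that brings iron in, fell from 74.0 to 44.0 CPM, or a ratio of 0.595 (0.563 to 0.628). Hmox1, heme oxygenase 1, rose from 71.0 to 172 CPM, Slc48a1, which moves heme out of the lysosome, from 28.7 to 44.9 CPM, and Blvrb, a biliverdin reductase, had a ratio of 1.44. Slc40a1, ferroportin, the iron exporter, had 12.1 and 38.9 CPM, or a ratio of 3.21, in too few cells to count, and 7 cells held 21.0% of its UMIs in DHA.LPS.0. The iron sensor genes Ireb2 and Aco1 had 0.931 and 0.847. Of the 15 members that met the share limit 4 rose and 1 fell, where 0.892% and 0.685% of all such genes did. The median log2 ratio of 19 usable members was 0.07, and the 10th to 90th percentiles of Fth1 per cell moved from 120 to 367 UMIs without DHA to 188 to 726 UMIs with it.

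Genes of defence against oxidants rose in part. Besides Hmox1, the glutathione-synthesis subunit Gclm rose from 75.1 to 127 CPM, Srxn1, sulfiredoxin, from 16.8 to 26.8 CPM, and Cat, catalase, from 35.8 to 57.6 CPM. These were 4 of the 23 genes of the list that met the share limit, against 0.892% of all genes that met it. Srxn1 met it through DHA.LPS.0 only, where it was higher, with a UMI in 41.8% of Veh.LPS.0 cells. Catalase is a peroxisomal enzyme that is also known as a PPAR target. Others of the list were above 1 by less: Gsr had 1.31, Prdx1 1.36, Slc7a11 1.38, Txnrd1 1.21 and Gclc 1.16. Gstm1 had 2.24 at 4.88 and 10.9 CPM, in few cells. Nfe2l2 and Keap1, for NRF2 and its inhibitor, were at 0.993 and 0.946. Gpx1, a selenoprotein peroxidase, was lower at 0.808, while another selenoprotein, Selenow, outside the list, rose from 64.3 to 106 CPM. The list's median log2 ratio was 0.19, with 19 members above 0 and 6 below. Con was higher than both libraries for several of these genes, with 198 CPM of Gclm, 137 CPM of Gsr against 97.6 with DHA and 74.7 without, and 896 CPM of Gpx1 against 145 and 179. Esd and Selenbp1, an esterase and a selenium-binding protein outside the lists, rose by 1.63 and 1.74. Sqstm1, a cargo receptor of autophagy that also frees NRF2, rose by 1.87, while the other 14 usable genes of the autophagy list stayed between ratios of 0.884, for Map1lc3b, and 1.32, for Calcoco1.

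Of 11 genes of zinc and copper handling that met the share limit, 2 rose and 1 fell, where 0.892% and 0.685% of all such genes did. Mt2 and Mt1, neighbours on chromosome 8 that encode metal-binding metallothioneins, rose, and Slc39a10, a transporter that brings zinc into the cell, fell. Mt2 (chr8:94172618-94173567) went from 69.6 to 268 CPM, or a ratio of 3.85 (3.73 to 3.97), and Mt1 (chr8:94178883-94180327) from 308 to 537 CPM, or a ratio of 1.75 (1.71 to 1.78). At equal depth Mt2 was above the 90th percentile of Veh.LPS.0 in 62.3% of DHA.LPS.0 cells. Slc39a10 (chr1:46807544-46925776) went from 114 to 37.0 CPM, or a ratio of 0.323 (0.305 to 0.342), and a UMI of it was in 86.2% of cells with vehicle and 45.4% with DHA at equal depth. Slc30a1, the zinc exporter of the outer membrane, had 1.67 CPM without DHA and 5.196 CPM with it, a ratio of 3.11 (2.51 to 3.86), in few cells. Mt1, Mt2 and Slc30a1 are textbook targets of the zinc-sensing factor MTF1, whose gene Mtf1 was at 1.00. The other 13 usable members, transporters of zinc and copper, had ratios between 0.840 and 1.58. In Con these genes were closer to DHA.LPS.0 than to Veh.LPS.0 for Slc39a10, at 34.2 CPM, and Slc30a1, at 4.29 CPM. Mt1 was highest in Con at 699 CPM, and Mt2 was 127 CPM there.

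Few stress genes downstream of ATF4 rose, though most of the list was a little higher. Its median log2 ratio was 0.20 over 24 usable members, with 22 above 0 and 2 below. Ddit3, which encodes CHOP, rose from 44.1 to 101 CPM, or a ratio of 2.30 (2.20 to 2.40). Trib3, a pseudokinase induced with it, rose by 1.84 and Atf3 by 1.56. These were 3 of the 20 genes of the list that met the share limit, against 0.892% of all genes that met it. Ddit3 and Trib3 met it through DHA.LPS.0 only, with a UMI in 48.0% and 33.3% of Veh.LPS.0 cells, so the count leans on the library where they were high. In cells called G1 the ratio of Atf3 was 1.16, and 25 cells held 27.6% of its UMIs in Veh.LPS.0, with 291 in 1 cell. Ppp1r15a had 41.3 against 27.6 CPM, just short, and Atf5, Slc3a2 and Slc7a11 had 1.41, 1.32 and 1.38. Atf4 itself was at 1.07, and the amino acid enzymes Asns, Phgdh and Psat1 were at 1.203, 1.19 and 0.831. Of the 16 endoplasmic reticulum chaperone genes that met the share limit none rose or fell, near the 0.892% and 0.685% of all such genes that did. That list had a median log2 ratio of 0.02 over 18 genes, and Hspa5 had a ratio of 1.23. The heat shock list had a median of -0.10. Its most abundant members Hsp90ab1, Hspa8 and Hspd1 had ratios of 0.990, 0.886 and 0.971. For p53 and cell death the median was -0.01 over 19 genes, with Mdm2 at 1.49, Cdkn1a at 0.992 and Bbc3 at 1.23. Among hypoxia and glycolysis genes Ndrg1, Ero1l and Ankrd37 rose, by 1.71, 1.56 and 1.79. They were 3 of the 19 genes of that list that met the share limit, against 0.892% of all genes that met it. Ankrd37 met it through DHA.LPS.0 only, with a UMI in 33.7% of Veh.LPS.0 cells. The glycolytic enzymes Gapdh, Pkm and Ldha stayed at 1.04, 1.04 and 1.09. Bnip3, a mitophagy receptor, and Slc2a1, a glucose transporter, had 1.40 and 1.32. Klf2, a factor that quiets macrophages, rose from 18.6 to 64.6 CPM, or a ratio of 3.48 (3.27 to 3.70), while Klf4 and Klf6 were at 0.982 and 1.12. Klf2 was carried by part of the cells, with a UMI in 35.2% of DHA.LPS.0 and 19.8% of Veh.LPS.0 cells at equal depth.

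Genes that turn polyunsaturated fatty acids into eicosanoids and related mediators had a median ratio near 1 without LPS. The median log2 ratio of 12 usable members was 0.06, from -0.40 for Alox5 to 0.29 for Ptges. Of the 8 that met the share limit none rose or fell, near the 0.892% and 0.685% of all such genes that did. Pla2g4a, the phospholipase that frees the fatty acid from membranes, had 252 CPM with DHA against 228 CPM, a ratio of 1.11. Alox5ap, which presents it to 5-lipoxygenase, had a ratio of 1.11. The 5-lipoxygenase gene Alox5 and the cyclooxygenase gene Ptgs1 were lower, at 0.759 and 0.790.

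Most nuclear genes of the respiratory chain were level. Chchd10, a protein of the space between the mitochondrial membranes, rose from 31.7 to 78.3 CPM. The other 19 nuclear genes of its list had log2 ratios between -0.21 and 0.19, and the 13 mitochondrially encoded genes had a median of -0.07, with ratios of 0.771 for mt-Nd4l, 0.782 for mt-Nd1 and 0.832 for mt-Nd3, all subunits of complex I. Cox6a2, outside the lists, is the form of a cytochrome oxidase subunit used in heart and muscle, and rose from 22.5 to 49.0 CPM, where Con had 1.85 CPM.

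Among surface and immune genes, Cd300a, an inhibitory receptor that binds phosphatidylserine and phosphatidylethanolamine, rose from 46.0 to 100 CPM, or a ratio of 2.18 (2.08 to 2.28), and Anxa4, a calcium-dependent membrane binder, from 104.7 to 174 CPM. They were 2 of the 19 genes of the list that met the share limit, against 0.892% of all genes that met it. Gpnmb and Clec10a, a glycoprotein of lipid-laden macrophages and a lectin, had ratios of 3.81 and 2.87. In DHA.LPS.0 7 cells held 35.7% of the UMIs of Gpnmb and 20.8% of those of Clec10a. Gpnmb had 44.8 against 11.8 CPM, with a UMI in 26.9% of DHA.LPS.0 cells, and Clec10a 17.2 against 5.98 CPM. Lgals3 was at 1.38 and Cd63 at 1.42. Outside the list, the integrin chain Itgb7 rose by 1.94, the enzyme Qpct, which caps chemokine ends, by 1.91 and the antibody receptor Fcgrt by 1.62. Cx3cr1, the fractalkine receptor, fell from 88.8 to 41.3 CPM, or a ratio of 0.465 (0.439 to 0.492), and Gpr84, a receptor of medium-chain fatty acids, to 21.6 CPM, or a ratio of 0.568. Raet1e, Igsf6 and Il18rap fell at 0.644, 0.588 and 0.664. Csf1r was at 0.697, with 62.2 against 89.2 CPM, and Trem2, Tlr2 and Tlr4 were at 1.10, 0.931 and 1.06. Spp1, osteopontin, showed the largest loss of CPM of any gene, from 6803 to 5623 CPM, or a ratio of 0.827.

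Without LPS the cytokine and chemokine list was level in its middle and uneven at its edge. Its median log2 ratio was -0.01 over 23 genes. Of the 14 that met the share limit none rose or fell, near the 0.892% and 0.685% of all such genes that did. Tnf, Il18 and Ccl9 were at 0.940, 0.942 and 0.929, the NF-kB subunit genes Nfkb1, Nfkb2, Rela and Relb at 0.881, 0.826, 0.935 and 0.865, and Ccl3 and Ccl4, with 1160 and 1524 CPM in Veh.LPS.0, at 1.11 and 1.17. The highest ratios came from a few cells. Ccl5 had 195 UMIs in 16 of the Veh.LPS.0 cells and 1830 UMIs in 47 of the DHA.LPS.0 cells, a ratio of 26.5, and 7 cells held 78.4% of the latter, with 453 in 1 cell. Cxcl10 had 656 UMIs in 315 cells and 700 UMIs in 74 cells, a ratio of 3.01, and Cxcl2 a ratio of 2.09 with 53.1% of its DHA.LPS.0 UMIs in 7 cells. The interval on UMIs does not describe such genes, because the UMIs of 1 cell are not independent.

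Interferon-regulated genes showed the same unevenness. Of 23 usable members 12 were more than 1.5-fold higher, counted with no limit on the share of cells. Without that limit, and with no minimum of UMIs, 1722 of 16266 genes were that much higher. The list's median log2 ratio was 0.77. It was 0.82 in cells with a mitochondrial share under 10% and -0.10 in those between 10% and 20%, and 0.92, 0.21 and 0.46 in cells called G1, S and G2M. Of the 9 members that met the limit on the share of cells, only Ifi202b rose, and it met the limit through DHA.LPS.0 only. Ifi202b rose from 27.3 to 66.1 CPM. Rsad2 had 11 UMIs in 4 Veh.LPS.0 cells and 105 UMIs in 10 DHA.LPS.0 cells, a ratio of 26.9, and 97.1% of the latter lay in 7 cells. Ifit1 had 43 UMIs in 18 cells and 284 UMIs in 32 cells, with 83.8% in 7 cells. Broader members were nearer 1, with Ifi203 at 1.47, Bst2 at 1.42, Mndal at 1.11, Irf9 at 0.960, Ifitm3 at 0.952 and Ifi27l2a at 0.713. At equal depth, 10 or more UMIs summed over 8 of these genes, Ifit1, Ifit2, Ifit3, Rsad2, Isg15, Oasl1, Mx1 and Usp18, chosen after their values were seen, were found in 15 of 698 DHA.LPS.0 cells, 2.15% (exact binomial interval 1.21 to 3.52, for the counting of cells in this library only). The same was so in 10 of 2481 Veh.LPS.0 cells, 0.403% (0.193 to 0.740), and in 0.275% of Con cells. None of the 8 had a UMI in 69.9% and 80.5% of DHA.LPS.0 and Veh.LPS.0 cells. At 1 h of LPS the shares were 4.03% with DHA and 0.748% with vehicle, and at 4 h the order was turned, with 8.38% and 17.6%.

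**Figure D4:**
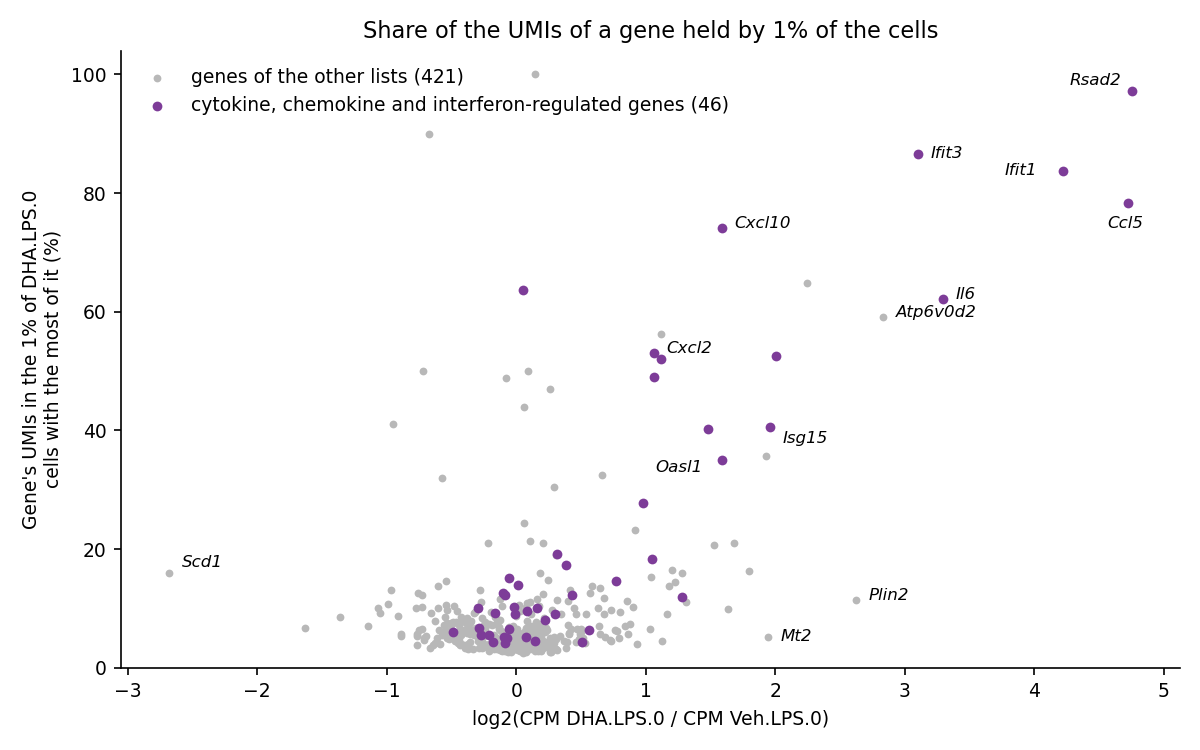
For 467 genes of the lists, the log2 ratio of DHA.LPS.0 to Veh.LPS.0 across and the percent of the gene's UMIs in DHA.LPS.0 held by the 7 cells with the most of it, 1% of the library, up. The median over all 467 genes is 5.63%, Plin2 and Mt2 are at 11.5% and 5.19%, and Rsad2, Ifit3, Ifit1, Ccl5 and Cxcl10, in purple, lie between 74.1% and 97.1%.

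Genes of the cell cycle were lower together, beside the larger share of G1 calls. All 23 DNA replication genes and all 20 mitosis genes had a ratio below 1, as did 3790 of the 6276 genes compared. The replication and mitosis lists had median log2 ratios of -0.32 and -0.41. Only Cenpe, a kinetochore motor, fell among them, at 0.648. Mki67 and Top2a, at 0.722 and 0.741, are among the genes that make the phase calls. The replication genes Mcm3, Rrm2 and Cdc6 had 0.701, 0.689 and 0.602, and the mitosis genes Ube2c, Kif20a and Plk1 had 0.713, 0.681 and 0.692. Of the 11 histone genes that met the share limit 5 fell, where 0.685% of all such genes did, and the median of 16 usable histone genes was -0.57. Hist1h2ap fell from 166 to 64.6 CPM, Hist1h2ae from 249 to 120 CPM, and Hist2h2ac, Hist1h1b and Hist1h4d to ratios of 0.530, 0.602 and 0.659. H2afz and H1f0, histones made outside S phase, had 0.793 and 0.685. Replication-dependent histone transcripts mostly lack the poly(A) tail that this chemistry captures, and near-identical copies share reads, so their values are uncertain. In cells called G1 alone, 15 of the histone genes, without Hist1h4i, which had no UMI there with DHA, had a median of -0.19, and the mitosis genes of -0.47. The lower level was not seen in every stratum, but the phase strata cannot judge this. The genes that make the phase calls include members of the replication and mitosis lists. Their medians within a called phase were thus in part fixed by the calls. The mitosis median was 0.06 in cells called S, 0.03 in G2M and 0.28 in cells with a mitochondrial share of 10% to 20%. The replication median was -0.23 in G1, -0.05 in S, 0.08 in G2M and 0.07 in that mitochondrial range, where the histone median was 0.14. In G1 cells Scd1, Plin2 and Slc39a10 were at ratios of 0.138, 6.25 and 0.298. Outside the lists Samd1, a reader of unmethylated CpG DNA, fell from 22.7 to 9.85 CPM, Tuba1a, a tubulin, from 55.4 to 32.2 CPM and Lbr, of the nuclear envelope, from 75.7 to 48.9 CPM. Gcat, an enzyme of threonine breakdown (ENSMUSG00000006378), fell from 49.2 to 27.4 CPM.

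Most ratios kept their direction within strata of cells and varied in size. The genes had been picked by their ratios in these same cells, so the counts of kept directions were in part fixed in advance. That holds most for a mitochondrial share under 10%, the range of 623 of the 698 DHA.LPS.0 and 2271 of the 2481 Veh.LPS.0 cells. All 56 genes that rose had ratios above 1 in cells with a mitochondrial share under 10% and also in the 75 DHA.LPS.0 and 210 Veh.LPS.0 cells between 10% and 20%. There the median log2 ratio was 0.59, against 0.78 in the cells under 10%. Of the 43 that fell, 43 and 37 were below 1, with medians of -0.77 and -0.36. Plin2 had a ratio of 6.47 in the first range and 3.67 in the second, and Fdps 0.621 and 0.757. Within G1, S and G2M cells, 56, 56 and 56 of the genes that rose were above 1, and 41, 43 and 43 of those that fell were below 1. The 2 exceptions in G1 were Hist1h4d at 1.03 and Sgo1, which guards cohesion at centromeres, at 1.08.

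The same treatments were then compared at 1 h and 4 h of LPS, in libraries that shared none with the 0 h pair. At 1 h 58 genes were higher with DHA and 80 lower, 1.07% and 1.48% of 5404 genes, and at 4 h 78 and 128, 1.40% and 2.30% of 5577. Of the 56 genes that rose at 0 h, 33 were also called at 1 h and 27 at 4 h, or 56.9% and 34.6% of the lists at those hours. Only 45 and 43 of the 56 met the share limit at those hours and could be called. Of the 43 that fell, 26 and 19 were called again, 32.5% and 14.8% of those lists, where 35 and 33 met the share limit. All 3 hours called 22 of the genes that rose, among them Plin2, Hilpda, Tmem120a, Acadvl, Acaa2, Lipa, Creg1, Cat, Hmox1, Fth1, Cd300a and Chchd10. All 3 hours called 19 of those that fell, among them 10 sterol enzymes with Insig1, Stard4, Scd1, Scd2, Fasn, Pcyt2, Cx3cr1 and Tuba1a. Plin2 had ratios of 6.16, 7.56 and 8.65 at 0, 1 and 4 h, and Scd1 of 0.156, 0.118 and 0.0313. The sterol list's median log2 ratio was -0.62, -0.88 and -0.92. For Scd2 the ratios were 0.453, 0.368 and 0.147.

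Several other genes had a different course. The metallothionein ratios were 3.85, 1.06 and 1.24 for Mt2 and 1.75, 0.766 and 1.19 for Mt1, and the vehicle libraries had 69.6, 484 and 992 CPM of Mt2. Slc30a1 had 3.11, 0.830 and 1.31. Slc39a10 was still at 0.354 at 1 h, with 31.6 against 89.3 CPM, and at 0.943 at 4 h, when Veh had 27.6 CPM. Ddit3 had 2.30, 1.14 and 0.951 and Trib3 1.84, 1.89 and 0.989. Cpt1a had 2.05, 2.69 and 6.17, but was in too few cells at 1 and 4 h to be called. The histone list had median log2 ratios of -0.57, -0.65 and 0.21 at the 3 hours. Whether the differences at 0 h and later are of different size was not tested, since each is a pair of single libraries.

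**Figure D5:**
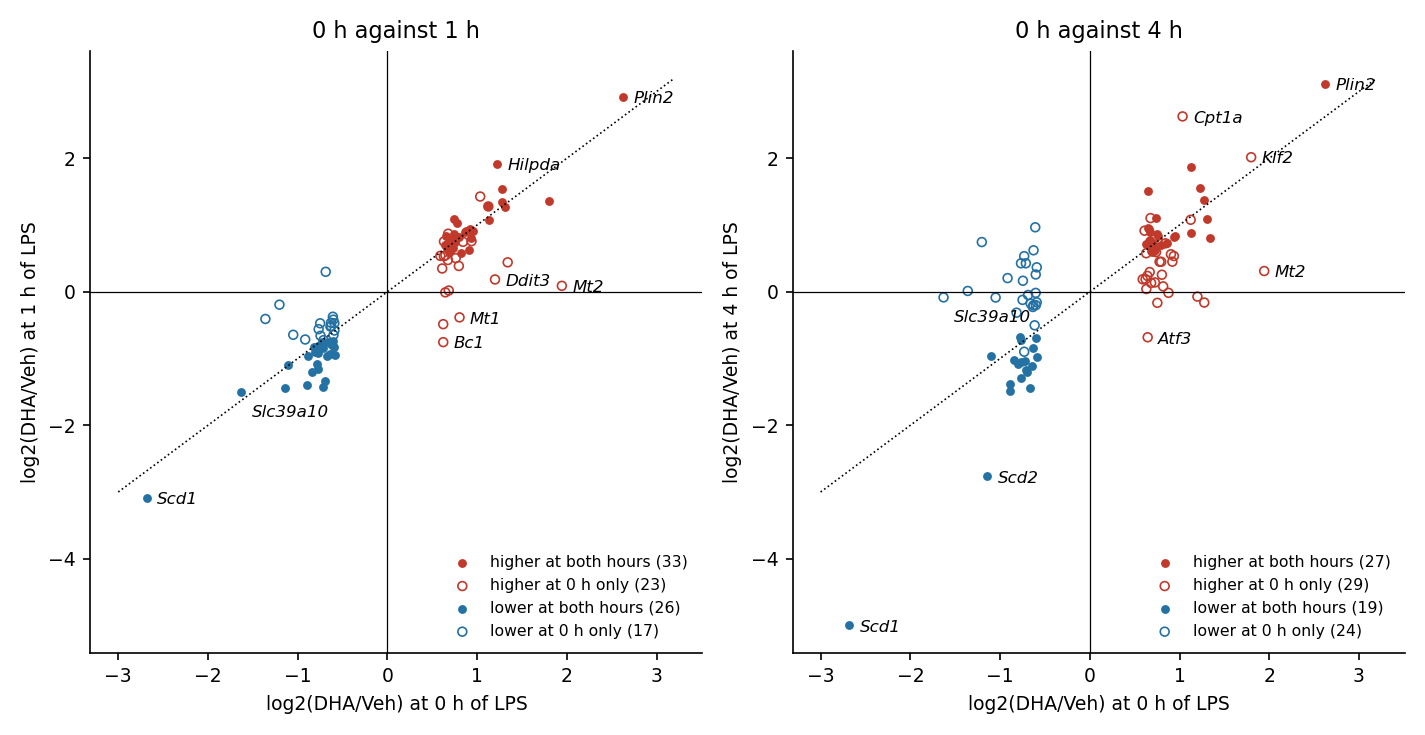
Log2 ratio of DHA to Veh for the 99 genes that rose (red) or fell (blue) at 0 h, at 0 h across and at 1 h (left) or 4 h (right) up. Filled points were also called at the later hour and open points were not, the dotted line marks equal ratios, Mt2 lies near 0 at both later hours, and Scd1 reaches a ratio of 0.0313 at 4 h.

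Among the most abundant transcripts, shifts were small in ratio. Besides ferritin, the largest gains of CPM were those of Malat1, mt-Co2, mt-Co1, Lgals3, Vim, Ctsl and H2-D1, with ratios from 1.09 for mt-Co1 to 1.38 for Lgals3, and of Plin2. The largest losses after Spp1 were those of mt-Nd1, from 4163 to 3257 CPM at 0.782, mt-Atp6, Rps29, mt-Nd2, Ptma, Rpl37, Actb, Rpl37a and Rpl38. None of these but Fth1, Ftl1 and Plin2 passed 1.5-fold.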

How the data were processed

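Droplet single-cell RNA libraries of FLMs (10x chemistry) were made by the authors, 1 per condition. The deposited values are raw UMI counts per gene and barcode from Cell Ranger, version 3.1.0 per the file headers (mm10 per the submitters' processing notes), unnormalized and not yet filtered by mitochondrial share. Barcodes with over 20000 UMIs, at least 2000 genes and under 20% mitochondrial UMIs were kept, counts were summed per gene and scaled to CPM, and ratios were given exact binomial 95% intervals. A size limit of 1.5-fold and 50% of cells replaced a test. Duplicate symbols were kept apart by gene ID. Doublets were not removed, and an alternative without the 5% of cells with the most UMIs was run. Gene positions are those of RefSeq for GRCm38.p6. The genes named were chosen by a rule: the 15 highest and 15 lowest ratios, the 10 largest CPM gains and losses, and up to 6 members of each list, or all past both limits. Not every member the rule allows is printed. Other genes past both limits, and other list members, were named after their values were seen. The members and lists were chosen with earlier results of these data known. Python 3.11.15, scanpy 1.11.5, R 4.3.3, Seurat 5.3.0, sctransform 0.4.2, edgeR 4.0.16 (TMM factors) and DESeq2 1.42.0 (size factors) were used. The ratio and its interval were run on simulated Poisson counts drawn around the vehicle sums. Those counts follow the interval's own model and hold no spread between cells or cultures, so the run cannot judge that spread. Columns unmapped to a sample numbered 0. Some list members are counted in their lists but not reported here by name.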

Additional observations from a re-analysis of the deposited data

Results flagged for a closer look

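Differences of opposite direction between hours are given as values, and none was tested, since each hour is 1 library per treatment. Atf3 had a DHA/Veh ratio of 1.56 at 0 h, 0.994 at 1 h and 0.623 at 4 h, and Bc1, a short brain-type noncoding RNA, of 1.54, 0.593 and 1.65. The median log2 ratio of the mitosis genes was -0.41 at 0 h, -0.53 at 1 h and 0.65 at 4 h, and that of the interferon-regulated genes 0.77, 1.28 and -1.01. Barcodes left out for a mitochondrial share of at least 20% made up 76.4% of DHA.LPS.0, and 37.8% of Veh.LPS.0. Scaled to non-mitochondrial UMIs, those barcodes showed ratios on the same side for 55 of the 56 genes that rose and 43 of the 43 that fell, past 1.5-fold for 31 and 25, with median depths of 9603 and 7611 UMIs. The exception was Atf3, at 0.935 (0.816 to 1.07). The same counts over all genes were not taken in those barcodes. The agreement thus has no background share to be judged against.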

How the results depend on the processing

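No paired analysis was possible because each condition is 1 library, and for the same reason no library could be left out. Against 56 genes that rose and 43 that fell, the counts were 34 rising with cells thinned to 20000 UMIs, when 3850 genes met the share limit, 90 rising with SCTransform-corrected counts, and 199 falling with no filter on barcodes. They were 91 and 80 with a limit of 25% of cells, 1722 and 2576 with no limit, and 13 and 7 with a limit of 2-fold. The share of higher genes among those called was 56.6%, and moved to 69.9% with TMM factors (72 and 31), 69.3% with DESeq2's factors (70 and 31), 71.4% with SCTransform (36 falling), 25.2% with no filter (67 rising) and 40.1% with no limit on the share of cells. Without a filter 12 of the 56 and 23 of the 43 recurred, and the median over all genes moved from -0.04 to -0.28. The histone median moved from -0.57 to -0.19 in cells called G1 and -0.95 with no filter, and that of the iron genes from 0.07 to 0.18 with SCTransform. With no filter, medians changed sign against 0 for NRF2 genes (-0.047 from 0.19), SREBP control (0.0044 from -0.28) and ATF4 genes (-0.056 from 0.20). The same held for nuclear respiratory genes (-0.21 from 0.03, and -0.0028 in G1 cells) and mitochondrially encoded genes (0.94 from -0.07). In that setting the NRF2, ATF4 and nuclear respiratory medians still lay above the -0.28 of all genes. With no filter other medians changed sign too, those of fatty acid uptake and oxidation (-0.06 from 0.13), LXR (-0.11 from 0.04) and autophagy (-0.29 from 0.05). KLF (-0.12 from 0.13) and zinc genes (0.09 from -0.02) did likewise. For these lists the members' lower interval bounds had a median below 0 and their upper bounds a median above 0. The fatty acid uptake, LXR and KLF medians still lay above the -0.28 of all genes, and that of autophagy did not. Of single genes past the limits, Hist1h4d (0.0403) and Sgo1 (0.11) reversed, in G1 cells. The cause of these moves was not tested. The medians of the sterol and fatty acid synthesis lists stayed below 0 under all alternatives run, from -0.69 to -0.58 and from -0.64 to -0.41. Within strata of cells they varied more. With a mitochondrial share under 10% and of 10% to 20%, the sterol median was -0.65 and -0.26, and that of fatty acid synthesis -0.47 and -0.38. In cells called S and G2M the sterol median was -0.51 and -0.48, and that of fatty acid synthesis -0.38 and -0.41. Depth limits genes of a few CPM, where 1 cell can decide a ratio.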
